A study of Mus musculus with 8 samples.

Results

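The comparison described here is the difference between 2 hypoxia responses: the change from normal to low oxygen in fibroblasts labelled KO, minus the same change in wild-type (WT) fibroblasts. It was computed for every feature that reached a value of 10 in 2 or more of the 8 libraries, which gave 12107 of the 17091 features in the table. The cells are immortalised skin fibroblasts, the collagen-producing cells of connective tissue adapted to continuous culture, from C57BL/6 mice. The WT group carries no named allele, and the KO group is labelled mir210lox/lox, meaning that sites for the Cre recombinase flank Mir210. No Cre treatment is named in the labels, so KO serves here as a group name. Each genotype spent 24 hours under 21% oxygen (normoxia) or 1% oxygen (hypoxia), and every one of the 4 groups has 2 libraries. The sources used here do not give the age or number of the mice, or the number of lines or cultures behind the libraries. The p-values therefore rest on a spread between libraries that may be only technical.

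Cells that lack oxygen stabilise the transcription factor HIF, which binds short motifs near its target genes and raises enzymes of glycolysis, glucose and lactate transporters and secreted angiogenic factors. The microRNA miR-210 is itself a HIF target, and it lowers messenger RNAs that pair with its seed, the stretch near its 5′ end. Its reported targets include proteins of iron-sulfur cluster assembly and of the mitochondrial respiratory chain. A transcript that miR-210 lowers in hypoxia would be higher after hypoxia in cells without it, and the difference of responses measures such a shift for each gene. A positive difference below means that the KO response was higher than the WT response, on the log2 scale of the normalised count plus 1.

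The mature microRNA is shown first because its seed defines the target sites examined below. It lies at chr7:141221407-141221428 on the minus strand (GRCm38.p6, sequence from RefSeq), and capitals mark seed positions 2 to 8.
miR-210-3p: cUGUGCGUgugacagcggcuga
Sites in the 3′ untranslated regions (UTRs) of 5 reported targets follow, on GRCm38, with the matched bases in capitals. They show the 3 kinds of match counted here: ACGCACAA (8mer), ACGCACA (7mer-m8) and CGCACAA (7mer-A1).
Kcmf1, 8mer, chr6:72842293-72842300, minus strand: tgtgcctcctACGCACAAagccagct
Gpd1l, 7mer-m8, chr9:114900800-114900806, minus strand: cctcagtgaaACGCACActatatgg
Ncam1, 7mer-m8, chr9:49505302-49505308, minus strand: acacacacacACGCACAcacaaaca
Bdnf, 7mer-A1, chr2:109724341-109724347, plus strand: cagtcatttgCGCACAActttaaaa
Ndufa4, 7mer-A1, chr6:11900475-11900481, minus strand: agaagccatcCGCACAAttttccac

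Mir210 was listed at 1, the lowest value in the table, in all 8 libraries, so its level does not check the genotype labels. Estimated assigned reads ran from 6.25 M to 11.75 M per library, and a value of 10 rested on about 6.2 to 13.8 reads. Of 10 fibroblast markers 9 were at 10 or more in every library, while the summed markers of leukocytes (68 to 104), endothelium (14 to 49) and keratinocytes (42 to 94) were low beside those of fibroblasts (66921 to 91568). Relative to long transcripts, short ones were highest in KO normoxia replicate 1 and WT hypoxia replicate 2, with WT hypoxia replicate 1 next. Since these are the extremes of a range and not a separate group, results are also given without that pair, called the short-transcript pair below.

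The test found 0 genes whose hypoxia response differed between KO and WT. With limma, 0 of 12107 features (0%) passed an adjusted p of 0.05, the smallest adjusted p was 0.8574, and 380 (3.14%) had an unadjusted p under 0.05, where 605 would be expected by chance. Of the 380, the KO response was higher for 144 (1.19%) and lower for 236 (1.95%). These counts were 1789 and 1356 without KO normoxia replicate 2, and 372 and 550 without WT hypoxia replicate 1. Leaving out WT normoxia replicate 2 gave 33 and 110, leaving out WT hypoxia replicate 2 gave 69 and 44, and leaving out KO normoxia replicate 1 gave 61 and 59. Leaving out KO hypoxia replicate 1 gave 29 and 177, leaving out KO hypoxia replicate 2 gave 31 and 60, and leaving out the short-transcript pair gave 56 and 24. In each of these fits 0 features passed the adjusted threshold. The precision was low for most features: the median SE of the difference was 0.411, and the 95% confidence interval lay within ±1 for 2828 features (23.4%) and within ±2 for 9865 (81.5%).

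A second description does not use the test. Within a genotype, the 2 normoxia and 2 hypoxia libraries give 4 hypoxia-minus-normoxia differences for a gene. The responses are called separated here when all 4 KO differences lie above, or all 4 below, the 4 WT differences. By this measure 1028 features (8.49%) were separated with KO higher and 1006 (8.31%) with KO lower. The median difference over all tested features was 0.014 and the median absolute difference was 0.351.

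**Figure D1:**
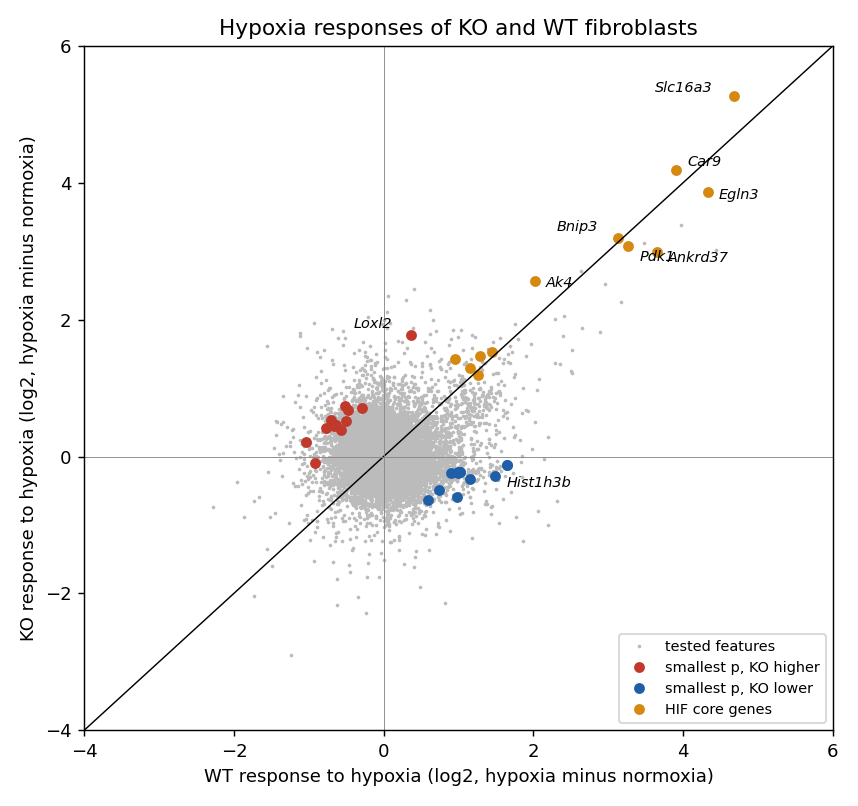
Hypoxia response in WT (horizontal) against KO (vertical) for each tested feature, as log2 hypoxia minus normoxia, with the line of equal responses. The 12 HIF core genes lie along that line at the upper right. The 12 genes per direction with the smallest p at or above the median level lie near the centre, on either side of the line.

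The core HIF targets had higher values in hypoxia in both genotypes, and none of their differences passed the test. The list holds 12 genes, all of them tested. Their median response was 2.58 in WT and 2.78 in KO, and the median difference was 0.12, or -0.15 without WT hypoxia replicate 1. Differences ranged from -0.66 to 0.58, with 8 positive and 4 negative, 0 of 12 separated and 0 at an unadjusted p under 0.05. The interval lay within ±1 for 4 of the 12.

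Slc16a3, the lactate exporter MCT4, had the widest gap above zero in this list. Its values were 15 and 13 in WT normoxia, 333 and 443 in WT hypoxia, 25 and 9 in KO normoxia, and 634 and 606 in KO hypoxia. Both KO hypoxia libraries were above both WT hypoxia libraries, but the normoxia values of KO lay on either side of those of WT. The difference was 0.58 (95% interval -0.69 to 1.86), and it was -0.11 with KO normoxia replicate 2 left out and 1.27 without KO normoxia replicate 1. Bnip3, a mitophagy receptor of the outer mitochondrial membrane, was at 51 and 53 in WT normoxia and 409 and 524 in WT hypoxia, against 40 and 32 and then 370 and 302 in KO. KO was lower than WT at both oxygen levels and the responses were 3.13 and 3.19, a difference of 0.06 (-0.76 to 0.87). Egln3, a prolyl hydroxylase that marks HIF for destruction, was at 16 and 26 in WT normoxia and 375 and 492 in WT hypoxia. In KO it was at 24 and 23 in normoxia and 367 and 344 in hypoxia. The hypoxia values of KO were the lower ones, and the difference was -0.47 (-1.40 to 0.47).

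Ankrd37, an ankyrin-repeat gene, had the lowest difference of the core list. It was at 35 and 30 in WT normoxia, 359 and 493 in WT hypoxia, 50 and 26 in KO normoxia, and 318 and 273 in KO hypoxia, giving -0.66 (-1.71 to 0.39). Pdk1, the kinase that keeps pyruvate out of the mitochondrial cycle, differed by -0.20 (-1.22 to 0.82), and its value was -0.76 in the libraries numbered 1 and 0.36 in those numbered 2. Ndrg1, a stress-response gene, differed by -0.06 (-0.85 to 0.73), and P4ha1, a collagen prolyl hydroxylase, by 0.09 (-0.64 to 0.82). The glucose transporter gene Slc2a1 differed by 0.14 (-0.70 to 0.99) and Adm, which encodes the vasodilator adrenomedullin, by 0.18 (-0.70 to 1.05). All of these intervals span zero. Car9, a cell-surface carbonic anhydrase, was at 29 and 19 and then 250 and 538 in WT, and at 12 and 15 and then 260 and 265 in KO. WT hypoxia replicate 2 was far above the other hypoxia libraries, and the difference was 0.28 (-0.92 to 1.48). The angiogenic factor Vegfa differed by 0.46 (-0.41 to 1.34) and Ak4, a mitochondrial adenylate kinase, by 0.53 (-0.28 to 1.35).

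**Figure D2:**
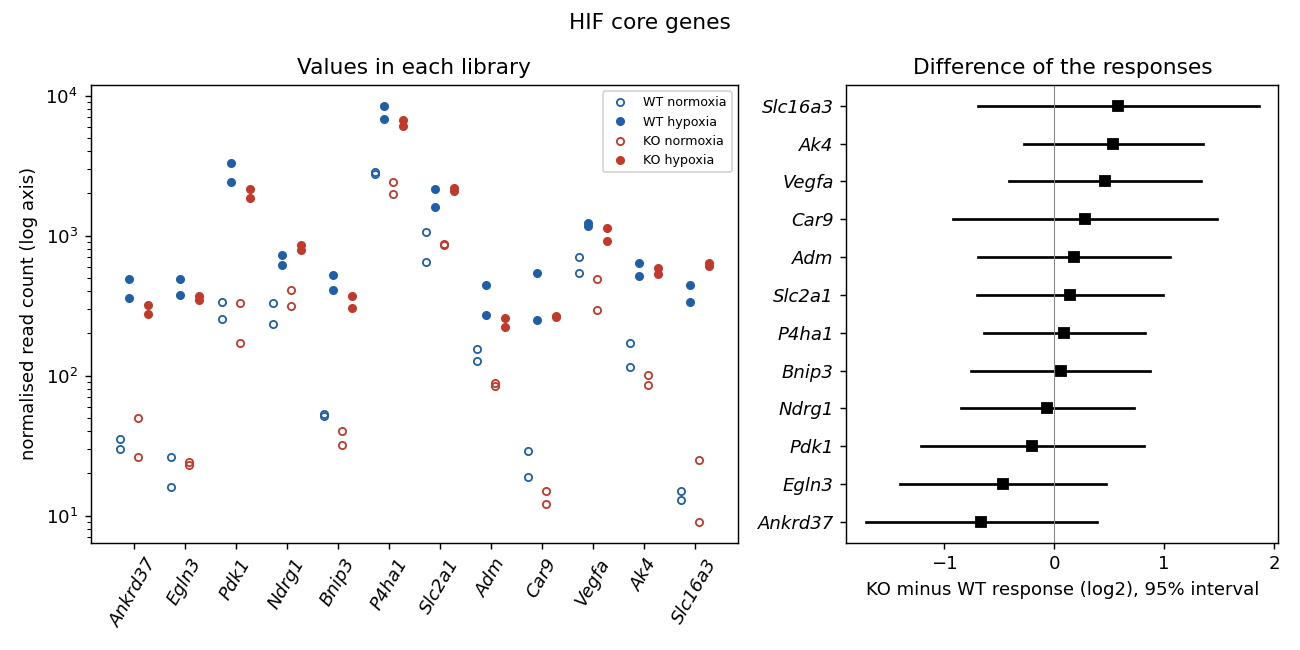
Left, normalised read count (log axis) of the 12 HIF core genes in each of the 8 libraries, open for normoxia and filled for hypoxia. Right, the difference of the responses (log2, KO minus WT) with its 95% confidence interval; every interval spans zero.

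The promoters of Slc16a3 and Bnip3 are printed because the list they belong to was higher in hypoxia in both genotypes. Each window holds 250 bases before and 50 after the RefSeq start (GRCm38.p6), and capitals mark ACGTG or GCGTG on either strand, the core letters of the HIF response element (overlapping matches are joined).
Slc16a3, chr11:120948817-120949116, plus strand: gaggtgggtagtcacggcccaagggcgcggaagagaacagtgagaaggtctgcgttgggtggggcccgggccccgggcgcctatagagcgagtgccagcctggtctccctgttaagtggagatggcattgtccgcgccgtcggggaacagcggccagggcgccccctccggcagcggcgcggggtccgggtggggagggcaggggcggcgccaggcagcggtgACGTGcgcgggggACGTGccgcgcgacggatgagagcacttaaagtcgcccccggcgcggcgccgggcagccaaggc
Bnip3, chr7:138909457-138909756, minus strand: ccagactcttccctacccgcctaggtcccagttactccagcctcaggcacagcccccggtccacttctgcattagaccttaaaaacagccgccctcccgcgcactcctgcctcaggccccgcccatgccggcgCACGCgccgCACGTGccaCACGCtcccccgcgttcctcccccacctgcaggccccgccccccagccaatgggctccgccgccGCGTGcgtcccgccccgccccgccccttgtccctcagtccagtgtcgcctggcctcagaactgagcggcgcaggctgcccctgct
There were 2 matches in the Slc16a3 window and 5 in that of Bnip3. Over the core genes, 14 of 16 windows held a match, against 14380 of the 32851 windows of this length in the table (43.8%). Counted by gene, all 11 core genes in the table had a match in at least 1 of their windows, against 12628 of 27025 genes (46.7%). Vegfa and Pdk1 each also had a window with none. Some windows of Ak4 overlap and hold the same matches, so the count by window repeats them. The list was made of HIF targets, so the choice of genes itself favours a match.

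The wider set of HIF-responsive genes was mixed. Of 38 tested, 17 differences were positive and 21 negative, with a median of -0.08; the median response was 0.84 in WT and 0.70 in KO. Separated responses were found for 4 genes with KO higher (10.5%) and 5 with KO lower (13.2%), against 8.49% and 8.31% over all features. Narf, a nuclear prelamin-binding protein gene, was at 272 and 327 in WT normoxia and 610 and 816 in WT hypoxia, against 509 and 325 and then 518 and 530 in KO. KO normoxia replicate 1 was close to both KO hypoxia libraries, and the difference was -0.87 ± 0.38 SE (limma unadjusted p = 0.04379), or -0.55 without KO normoxia replicate 1. Bnip3l, a mitophagy receptor related to Bnip3, was at 783 and 724 and then 1724 and 2427 in WT, and at 884 and 894 and then 1757 and 1766 in KO, a difference of -0.45 ± 0.32.

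Glycolysis enzymes had higher values in hypoxia in both genotypes, with a smaller median in KO (0.86) than in WT (1.21). Of 21 tested, 17 differences were negative (81%), against 48.9% over all features. The median was -0.31, but 0 were at an unadjusted p under 0.05. Ldha, which turns pyruvate into lactate, was at 3942 and 2603 in WT normoxia, 13047 and 13539 in WT hypoxia, 6298 and 2807 in KO normoxia, and 8609 and 7939 in KO hypoxia. Both WT hypoxia values were above both KO hypoxia values, and KO normoxia replicate 1 was the highest normoxia library. The difference was -1.08 ± 0.52. Tpi1, triosephosphate isomerase, went the same way, from 3207 and 2543 to 10595 and 13741 in WT and from 4944 and 2386 to 7590 and 7455 in KO, a difference of -0.95 ± 0.48. Leaving out KO normoxia replicate 2 gave a list median of -0.77 and leaving out KO normoxia replicate 1 gave 0.07, so its sign rests on the latter library.

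Among well-measured genes with a higher response in KO, Loxl2, a lysyl oxidase that crosslinks collagen and a known HIF target, had the smallest p. The genes in this and the next paragraphs are the 12 per direction with the smallest p among features at or above the median level, so the choice itself favours separated responses. Loxl2 (chr14:69609068-69695834, GRCm38) was at 285 and 484 in WT normoxia, 532 and 433 in WT hypoxia, 137 and 181 in KO normoxia, and 498 and 588 in KO hypoxia. Hypoxia values of the genotypes were close, while both KO normoxia libraries were below both WT normoxia libraries. The response was 0.37 in WT and 1.77 in KO, a difference of 1.41 ± 0.41 SE (limma unadjusted p = 0.006378, adjusted p = 0.8574). It ranged from 1.02 to 1.79 with single libraries left out.

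The other genes of this set mostly had lower values in WT hypoxia. Sorcs2, a sorting receptor with a Vps10 domain, was at 254 and 351 in WT normoxia, 191 and 187 in WT hypoxia, 183 and 265 in KO normoxia, and 321 and 279 in KO hypoxia, a difference of 1.10 ± 0.37. Cgnl1, the junction protein paracingulin, was at 770 and 1009 in WT normoxia, 483 and 382 in WT hypoxia, 676 and 1218 in KO normoxia, and 921 and 1204 in KO hypoxia, a difference of 1.25 ± 0.43. In both, WT hypoxia was the lowest group or shared the lowest place, and KO hypoxia replicate 1 was above KO normoxia replicate 1. Chd3, a chromatin-remodelling helicase of the NuRD complex, was at 914 and 1022 and then 519 and 503 in WT but at 818 and 817 and then 706 and 838 in KO, a difference of 0.83 ± 0.29. The remaining genes were Myadm, Pmepa1 (an inhibitor of TGF-beta signalling), Iqsec1, Fyn (a Src-family kinase), Cep250 and Pcnt (centrosome proteins), Sec16a (an organiser of endoplasmic reticulum exit sites) and Larp1 (a translation regulator). Their differences ran from 0.96 to 1.27. For 11 of the 12 the WT response was negative, and for 11 the KO response was positive. Their transcripts were long, with a median of 6685.5 bases against 3424 over all tested features, and with the length trend of each library removed the differences of the 12 were 0.42 to 1.16.

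Most of the genes with a lower response in KO had short transcripts. Rps25, a protein of the small ribosomal subunit, had the smallest p of all features; its mean level is just under the median, so it is named from the ribosomal list. It was at 201 and 164 in WT normoxia, 335 and 360 in WT hypoxia, 353 and 231 in KO normoxia, and 216 and 172 in KO hypoxia. The order of normoxia and hypoxia was opposite in the genotypes in both numbers, and the difference was -1.50 ± 0.38 (limma unadjusted p = 0.002657, adjusted p = 0.8574). Hist1h3b, a replication-dependent histone H3 gene, was at 406 and 321 in WT normoxia, 764 and 1357 in WT hypoxia, 880 and 470 in KO normoxia, and 523 and 530 in KO hypoxia, a difference of -1.78 ± 0.49. Pfdn4, a subunit of the prefoldin chaperone, was at 696 and 530 and then 946 and 1098 in WT, and at 852 and 537 and then 472 and 496 in KO, a difference of -1.23 ± 0.38. All 3 genes had their highest hypoxia value in WT hypoxia replicate 2, and their highest KO value in KO normoxia replicate 1.

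Psma7, a proteasome core subunit, was at 3148 and 2286 and then 3880 and 4222 in WT, and at 4676 and 2731 and then 2372 and 2234 in KO, a difference of -1.23 ± 0.41. Snrpd1, a core protein of the spliceosome, differed by -1.23 ± 0.40 and Mrpl42, of the mitochondrial ribosome, by -1.14 ± 0.38. Rpl26 and the processed pseudogene Gm15772 held identical values in all 8 libraries (difference -1.77 ± 0.58), so they share reads and count as 1 measurement. Klra4, Klra33 and Klra18, members of a natural killer cell lectin family, had near-equal differences (-1.25, -1.24 and -1.22) and are likewise uncertain. Klra4 was at 504 to 1433 per library, above the summed macrophage and leukocyte markers (68 to 104). Myeov2 and the linker histone gene Hist1h1b complete the set. All 12 had a positive WT and a negative KO response, and their median transcript length was 858 bases. With the length trend removed, the differences of those with a length ran from -1.18 to -0.70.

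**Figure D3:**
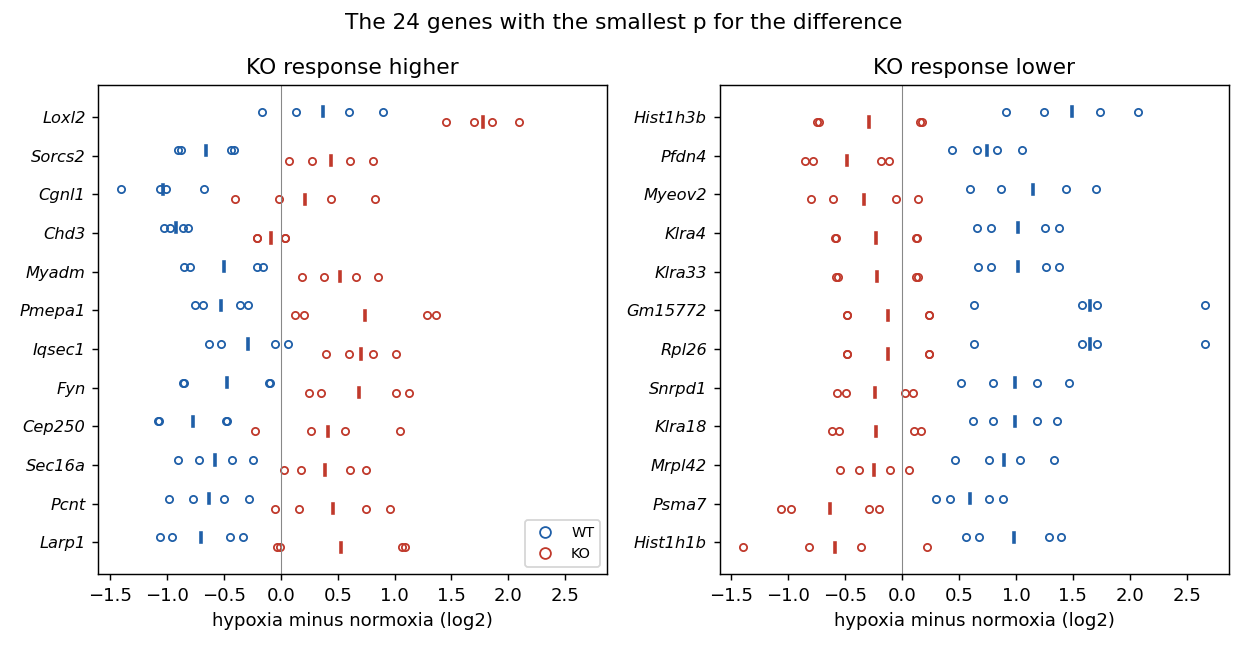
The 4 hypoxia-minus-normoxia differences (log2) within WT and within KO for the 24 genes with the smallest p, with bars at the fitted responses. WT and KO points do not overlap for any of them, which the choice of genes favours, and the WT points of the genes with KO lower are all positive.

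None of the reported miR-210 targets passed the adjusted test as a single gene. Of 35 listed, 34 were in the table and 30 were tested; Efna3, Hoxa9, Neurod2 and Xist were below the level filter. Of the 30, 19 differences were positive (63.3%, against 51.1% over all features). The median was 0.18, against 0.014 over all features. The 95% interval lay within ±1 for 6 of the 30, so equal responses are not shown. At an unadjusted p under 0.05 there were 2 with KO higher and 0 with KO lower. These shares over all features were 1.19% and 1.95%. Separated responses were found for 6 with KO higher (20%) and 1, Rad52, with KO lower (3.33%), against 8.49% and 8.31% over all features.

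Runx3, a transcription factor of the Runt family, was at 56 and 40 in WT normoxia, 35 and 22 in WT hypoxia, 57 and 55 in KO normoxia, and 105 and 81 in KO hypoxia. Values went down in WT and up in KO in both numbers, and the difference was 1.46 ± 0.49 SE (limma unadjusted p = 0.01314), or 1.39 with the length trend removed. Ptprj, a receptor tyrosine phosphatase, was at 162 and 162 and then 133 and 122 in WT, and at 86 and 152 and then 179 and 182 in KO, a difference of 1.00 ± 0.41 (limma unadjusted p = 0.03448), which was 0.59 without KO normoxia replicate 1. Neither gene holds one of the 3 site types in its annotated 3′ UTR. Others separated with KO higher include Ddah1 (0.70 ± 0.35), which breaks down methylarginines, Mnt (0.71 ± 0.44), a partner of Max, and the cell cycle factor E2f3 (0.75 ± 0.38).

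Targets with the sites shown above were spread on both sides of zero. Gpd1l, a glycerol-3-phosphate dehydrogenase-like enzyme with 3 sites, was at 286 and 260 in WT normoxia, 184 and 149 in WT hypoxia, 266 and 254 in KO normoxia, and 201 and 188 in KO hypoxia. Its values were lower in hypoxia in both genotypes, by 0.72 in WT and 0.42 in KO on the log2 scale, and the difference was 0.30 (95% interval -0.41 to 1.01). Kcmf1, a ubiquitin ligase with the 8mer, differed by -0.15 (-0.87 to 0.57) and the neurotrophin Bdnf by 0.43 (-0.35 to 1.20). Ncam1, a cell adhesion molecule, was at 976 and 1238 and then 1166 and 1067 in WT, and at 497 and 1696 and then 1895 and 2074 in KO. KO normoxia replicate 1 was the lowest library, and the difference of 1.09 (-0.32 to 2.49) was 0.20 without it. Ndufa4, a respiratory-chain subunit, differed by -0.88 (-1.84 to 0.08). Iscu, the iron-sulfur cluster scaffold and a much studied target, holds none of the 3 site types in its annotated 3′ UTR. Its values were 90 and 120 in WT normoxia and 90 and 97 in WT hypoxia. In KO they were 108 and 82 in normoxia, and 89 and 71 in hypoxia. The groups overlapped and the difference was -0.09 (-0.98 to 0.81).

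Genes grouped by their 3′ UTR sites showed a small positive shift that long UTRs shared. The 588 tested genes with a 7mer or 8mer had a median difference of 0.24, with 404 positive, and 87 (14.8%) were separated with KO higher and 35 (5.95%) with KO lower. The medians were 0.22 for the 59 with an 8mer, 0.23 for the 406 with a 7mer-m8 and 0.26 for the 123 with a 7mer-A1, so the longest match did not have the highest value. For the 10852 genes without a site the median was 0.017. Genes with a site had longer 3′ UTRs (median 2797.5 against 1352.5 bases). Among the 3472 genes that lack a site but have UTRs in the middle range of those lengths, the median was 0.17, with 11.3% separated with KO higher and 5.3% with KO lower. With the length trend removed, the median of the genes with a site was 0.05, and without the short-transcript pair it was 0.07.

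Transcript length moved with the difference over all genes. In 4 equal bins from the shortest (59 to 2203 bases) to the longest (4869 to 123179 bases), the median differences were -0.34, -0.08, 0.10 and 0.40, and the shares of positive differences were 21.8%, 41.4%, 60.4% and 81.4%. The order was the same in the libraries numbered 1 (-0.39 to 0.51) and in those numbered 2 (-0.30 to 0.29). Between libraries, the slope of level on length, in log2 per doubling of length, was 0.04 and 0.09 in WT normoxia, -0.09 and -0.14 in WT hypoxia, -0.17 and 0.16 in KO normoxia, and -0.02 and 0.13 in KO hypoxia. WT slopes were lower in hypoxia in both numbers. The KO slopes were higher in hypoxia in number 1 and slightly lower in number 2. The shortest and longest bins had medians of -0.13 and 0.13 without KO normoxia replicate 1, -0.59 and 0.66 with KO normoxia replicate 2 left out, and -0.07 and 0.08 without the short-transcript pair. Length here is that of the annotated transcript, and the cause of the trend was not tested.

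**Figure D4:**
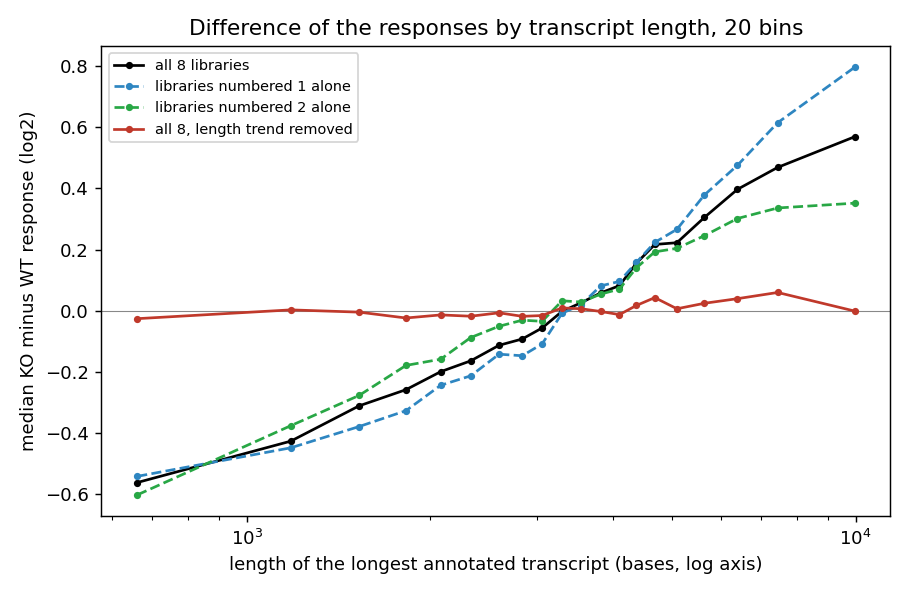
Median difference of the responses (log2, KO minus WT) in 20 bins of tested features ordered by annotated transcript length (log axis), for all 8 libraries, for each number alone and with the length trend of each library removed. The lines rise from negative to positive with length, except the one with the trend removed, which stays near zero.

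Lists of short genes had the lowest medians. Replication-dependent histones, which package new DNA and whose messages end in a stem-loop, had 63 negative differences of 63, a median of -1.27, 29 at an unadjusted p under 0.05 and 27 separated (42.9%, all with KO lower). Hist1h3f, a histone H3 gene, was at 137 and 170 and then 311 and 381 in WT, and at 369 and 170 and then 194 and 125 in KO, a difference of -1.85 ± 0.52. Histone genes resemble each other closely and may share reads. Their median response was 0.93 in WT and -0.29 in KO, and their median transcript length was 555.5 bases. With the length trend removed the median difference was -0.76, and without the short-transcript pair it was -0.44. Over all features, 1.95% had an unadjusted p under 0.05 (limma) with KO lower, and 8.31% were separated that way. In the shortest length bin 78.2% of differences were negative and 16.9% were separated with KO lower.

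Cytosolic ribosomal proteins had 70 negative differences of 76 and a median of -0.69, with 28 separated with KO lower (36.8%) and 0 with KO higher. For mitochondrial ribosomal proteins these were 68 of 76, -0.46 and 27 (35.5%), with 1 separated with KO higher. Mrpl14, a large-subunit protein of that ribosome, was at 249 and 225 and then 410 and 418 in WT, and at 290 and 235 and then 259 and 223 in KO, a difference of -0.92 ± 0.32. The WT libraries went up in hypoxia by similar amounts and the KO libraries did not. With the length trend removed the medians of these lists were -0.27 and -0.29, and without the short-transcript pair they were -0.24 and -0.21. The share separated with KO lower was 8.31% over all features and 16.9% in the shortest length bin. For negative differences these shares were 48.9% and 78.2%.

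The respiratory chain, which makes ATP with oxygen, followed the same direction. Complex I, the entry point for NADH, had 37 negative differences of 37, a median of -0.66 and 17 separated with KO lower (45.9%). Complexes II to V had 38 of 40, a median of -0.60 and 15 separated (37.5%). Over all features 48.9% of differences were negative and 8.31% were separated with KO lower. In the shortest length bin these shares were 78.2% and 16.9%. Ndufs4, an accessory subunit of complex I, was at 785 and 809 in WT normoxia, 1053 and 1798 in WT hypoxia, 1424 and 867 in KO normoxia, and 876 and 924 in KO hypoxia, a difference of -1.09 ± 0.43. KO normoxia replicate 1 was the highest of the KO libraries. Atp5c1, the gamma subunit of ATP synthase, differed by -1.10 ± 0.39 and Sdhb, the iron-sulfur subunit of complex II, by -1.01 ± 0.37, or -0.66 without KO normoxia replicate 1. With the length trend removed the medians of complex I and of complexes II to V were -0.26 and -0.31. Without the short-transcript pair they were -0.24 and -0.14.

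Other housekeeping lists were lower by less. Negative differences made up 48.9% over all features, 78.2% in the shortest length bin and 58.6% in the bin of 2204 to 3424 bases. Proteasome subunits had 29 negative of 32 (median -0.39), prefoldin and chaperonin subunits 13 of 14 (-0.33), and genes of iron-sulfur cluster assembly 21 of 26 (-0.29). Neighbours of Mir210 on chromosome 7 had 23 negative of 28 and a median of -0.38, with Bet1l, a transport SNARE, at 241 and 304 and then 339 and 499 in WT, and at 410 and 215 and then 199 and 239 in KO (-1.05 ± 0.47), or -0.58 without KO normoxia replicate 1. In all 9 of these lists, from histones to the neighbours, the lowest median with a single library left out came when that was KO normoxia replicate 2, and the highest when it was KO normoxia replicate 1. For histones that was -1.94 and -0.58, for cytosolic ribosomal proteins -1.05 and -0.38, for complex I -1.02 and -0.37, and for the neighbours -0.67 and -0.21. The iron-sulfur median was -0.53 and -0.05, that of prefoldin and chaperonin subunits -0.51 and -0.15, and that of the proteasome -0.60 and -0.22. With the length trend removed the prefoldin median was -0.02, and without the short-transcript pair the iron-sulfur median was -0.07. The medians of all 9 were negative in all 24 alternatives, some of them close to zero.

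Genes of the extracellular matrix, which fibroblasts secrete, leaned the other way. Of 20 collagen chains 17 differences were positive, with a median of 0.56, 4 at an unadjusted p under 0.05 and 7 separated with KO higher (35%). Col5a3, a chain of type V collagen, was at 74 and 128 in WT normoxia, 62 and 54 in WT hypoxia, 20 and 42 in KO normoxia, and 61 and 55 in KO hypoxia. The hypoxia values nearly coincided and the normoxia values of the genotypes did not overlap. The difference was 1.71 ± 0.57 (limma unadjusted p = 0.01284). Col4a1, a basement membrane chain, differed by 0.86 ± 0.36. Matrix glycoproteins had 20 positive of 26 and a median of 0.55, with the laminin gene Lama5 at 1.12 ± 0.46 (0.74 without KO normoxia replicate 1), and lysyl oxidases and collagen hydroxylases had 11 of 17 and 0.09. The collagen median was 0.14 with the length trend removed. Leaving out WT normoxia replicate 2 made it 0.18 and leaving out WT normoxia replicate 1 made it 0.84. The matrix glycoprotein median was 0.20 with the length trend removed, 0.32 without KO normoxia replicate 1 and 0.86 without WT normoxia replicate 1, and that of the lysyl oxidases and hydroxylases was -0.06 without WT hypoxia replicate 1. These genes are long, with a median of 6284.5 bases for the collagens. In the longest length bin 81.4% of differences were positive and 16.2% were separated with KO higher. Over all features 51.1% of differences were positive, 8.49% were separated with KO higher, and 1.19% had an unadjusted p under 0.05 (limma) in that direction.

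Contractile and adhesion genes had 21 positive differences of 25 and a median of 0.49. Positive differences made up 51.1% over all features, 60.4% in the bin of 3425 to 4868 bases and 81.4% in the longest bin. Myh10, a nonmuscle myosin heavy chain, was at 1652 and 3201 and then 1382 and 1503 in WT, and at 1052 and 2070 and then 1922 and 2207 in KO, a difference of 1.15 ± 0.52. With KO normoxia replicate 1 left out, the list median was 0.23 and Myh10 was 0.67, and without KO normoxia replicate 2 Myh10 was 1.64. The list median was 0.20 without the short-transcript pair and 0.20 with the length trend removed. The summed values of 9 skeletal and smooth muscle markers were 4744 to 7199 in WT normoxia, 5878 to 6510 in WT hypoxia, 3455 to 4216 in KO normoxia and 4478 to 4872 in KO hypoxia. KO was lowest in normoxia, 6 of the 9 were at 10 or more in every library, and Myh3 was at the floor in all of them. The part of these markers in the contractile result was not tested. In such bulk samples, fewer cells of a kind and less RNA per cell cannot be told apart. Junction and polarity genes had 17 positive of 19 (median 0.40), with Tjp1, the scaffold ZO-1, at 1.14 ± 0.54, and TGF-beta ligands, receptors and Smads had 21 of 23 (0.36), with the co-receptor gene Tgfbr3 at 1.03 ± 0.44. Leaving out KO normoxia replicate 1 gave medians of 0.22 for junction genes and 0.09 for TGF-beta genes, with Tjp1 at 0.40 and Tgfbr3 at 0.53. Leaving out the other KO normoxia library gave 0.63 for each list, with Tjp1 at 1.89 and Tgfbr3 at 1.53. With the length trend removed the medians were 0.34 for junction genes and 0.19 for TGF-beta genes. Without the short-transcript pair they were 0.21 and 0.05.

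Proteins of the microRNA pathway, which load and act with microRNAs, had 13 positive of 15 and a median of 0.62. Positive differences made up 51.1% over all features and 81.4% in the longest length bin. This list has long transcripts, with a median of 7227 bases, and with the length trend removed its median difference was 0.21. Eif2c2, which encodes Argonaute 2, was at 486 and 525 in WT normoxia, 478 and 292 in WT hypoxia, 293 and 675 in KO normoxia, and 699 and 743 in KO hypoxia. KO hypoxia was above every other library, and KO normoxia replicate 1 was near the low WT hypoxia replicate 2. The difference was 1.13 ± 0.52, or 0.45 with the length trend removed and 0.53 without KO normoxia replicate 1. The list median was 0.22 without KO normoxia replicate 1, 1.22 with KO normoxia replicate 2 left out and 0.07 without the short-transcript pair.

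**Figure D5:**
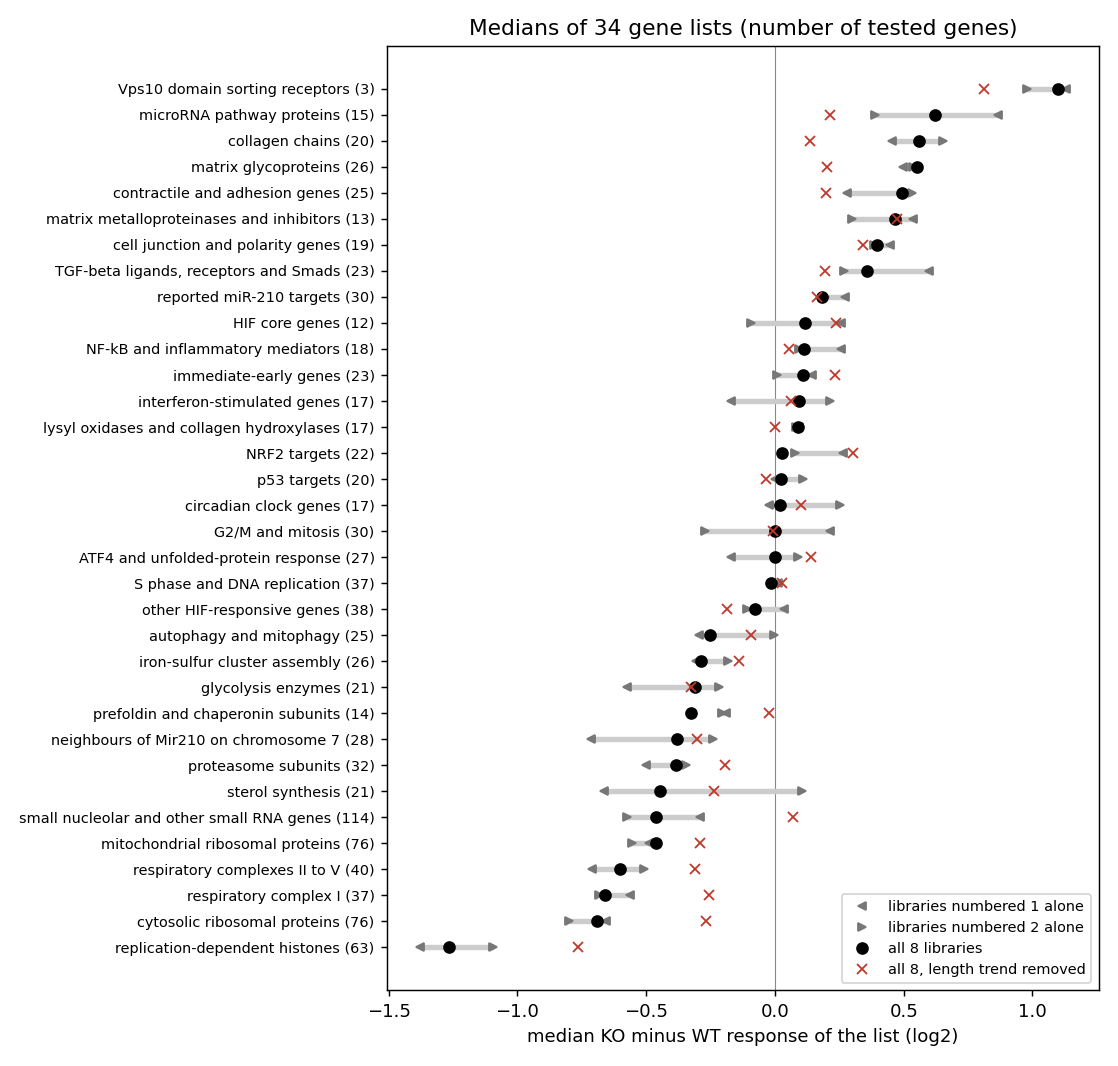
Median difference of the responses (log2, KO minus WT) of each gene list with its number of tested genes, for all libraries (black), each number alone (triangles) and with the length trend removed (crosses). Histone, ribosomal and respiratory lists lie lowest, collagen and matrix lists lie high, and most crosses are nearer zero.

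Several programmes were centred near zero. Genes of S phase and DNA replication had a median of -0.02 with 2 of 37 separated in each direction, and 19 of the 37 had an interval within ±1. The medians were 0.00 for G2/M and mitosis (16 positive of 30), 0.02 for p53 targets (11 of 20), 0.03 for NRF2 targets (11 of 22), 0.02 for circadian clock genes (10 of 17) and -0.001 for ATF4 and the unfolded-protein response (13 of 27). The sign of these medians changed between alternatives. Interferon-stimulated genes had a median of 0.09, but -0.76 with WT normoxia replicate 2 left out and 0.94 without WT normoxia replicate 1, and 10 of their members were below the filter.

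Immediate-early genes, the first transcripts of a growth or stress signal, had a median of 0.11 (14 positive of 23). Of the 23, 4 were separated with KO higher (17.4%), against 8.49% over all features. Klf4, a transcription factor of this group, was at 101 and 108 in WT normoxia, 115 and 84 in WT hypoxia, 82 and 187 in KO normoxia, and 258 and 265 in KO hypoxia. The 2 KO hypoxia libraries were above all others, and the difference was 1.16 ± 0.51, or 1.20 with the length trend removed. It was 0.57 without KO normoxia replicate 1 and 1.75 with KO normoxia replicate 2 left out. Inflammatory mediators had a median of 0.11 (10 positive of 18), with Csf1, the macrophage growth factor, at 0.85 ± 0.38, or 0.49 without KO normoxia replicate 1. Matrix metalloproteinases and their inhibitors had 11 positive of 13 (84.6%, against 51.1% over all features). Their median was 0.47, but it was -0.02 without WT normoxia replicate 2. Vps10 receptors had 3 tested members, of which Sorcs2 (1.10) and Sort1 (1.33 ± 0.67) were separated.

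Sterol synthesis genes, autophagy genes and small RNA genes had negative medians that did not keep their sign. Negative differences made up 48.9% over all features, 78.2% in the shortest length bin and 58.6% in the bin of 2204 to 3424 bases. For sterol synthesis 17 of 21 were negative with a median of -0.45, and it was 0.13 without KO normoxia replicate 1 and 0.11 in the libraries numbered 2. Mvk, mevalonate kinase, was at 655 in KO normoxia replicate 1 and between 194 and 261 in every other library. Autophagy and mitophagy genes had 17 negative of 25 and a median of -0.25, which was 0.08 without KO normoxia replicate 1. Fundc1, a mitophagy receptor, was at 322 and 353 and then 474 and 810 in WT, and at 396 and 385 and then 381 and 406 in KO, so WT values went up and KO values stayed level, a difference of -0.87 ± 0.38 (limma unadjusted p = 0.04362) that was -0.48 without WT hypoxia replicate 2. Small nucleolar and other small RNA genes had 104 negative of 114 and a median of -0.46. Left-out KO hypoxia libraries turned that to -1.47 (replicate 1) or 0.62 (replicate 2), and with the length trend removed it was 0.07.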

How the data were processed

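RNA was extracted with a miRNeasy kit and turned into libraries with a small RNA kit of New England Biolabs for SOLiD sequencing, per the labels' protocols. The deposited table holds 1 score per gene and library: normalised read counts by its name, whole numbers from 1 upward in all columns. The sources used here do not give the aligner, counting program, build, strand setting or normalization. Overlapping, antisense and near-identical genes may share reads. Rounding hides whole reads, so no count model was run, and depth was estimated from the spacing of low values. Date-like names numbered 26, duplicated names 2, identical library pairs 0 and unused sample columns 0.

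Values were taken as log2(value + 1), which understates changes of low genes. A model of 4 groups over the 8 libraries was fitted with limma 3.58.1 (R 4.3.3, statmod 1.5.0; trend, no replicate term, 10.2 degrees of freedom) to features at 10 or more in at least 2 libraries; 4984 were untested. Tests are two-sided, adjusted by Benjamini and Hochberg over all 12107 features at 0.05. An exact test of 2 libraries against 2 cannot go below 0.333, so the tests rest on a spread shared over groups.

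Transcript and UTR lengths came from GENCODE M21 on GRCm38 (98.8% of tested features), and sequences from there and RefSeq. The longest annotated form per gene may not be the one expressed. The length trend was removed per library by a loess curve (span 0.5). The members and the 34 lists were chosen with earlier results of these data known. Named genes are the 12 per direction with the smallest p at or above the median level, all HIF core genes and tested targets, and from other lists those with the smallest p or separated responses, the latter mostly as counts. Of 24 alternatives, 8 leave out 1 library, and the replicate term within each genotype was added after seeing the data. A result on a withheld item is not reported here.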

Additional observations from a re-analysis of the deposited data

How the results depend on the processing

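No feature passed an adjusted p of 0.05 in any of the 22 alternatives that have a test (limma); the libraries numbered 1 or 2 alone give none. The lowest adjusted p, 0.0535, came without KO normoxia replicate 2, where KO normoxia replicate 1 alone stands for its group and is assumed to vary like the others. Features at an unadjusted p under 0.05 with KO higher numbered 220 with array weights, 242 with a replicate block, and 56 without WT hypoxia replicate 2 and KO normoxia replicate 1, against 144. With single libraries left out they ranged from 29 to 1789. Those with KO lower numbered 24 without both those libraries and 44 to 1356 with single libraries left out, against 236. Separated responses numbered 2814 with KO higher and 2793 with KO lower without both libraries, and 1430 to 3749 and 1472 to 3285 with single ones left out. Fewer differences are then compared, so those counts must go up. The replicate block gave 242 and 301 features at an unadjusted p under 0.05 and changed no adjusted call. With the block fitted within each genotype, an alternative chosen after seeing the data, the counts were 665 with KO higher and 651 with KO lower, and the smallest adjusted p was 0.0918. Deviations of same-numbered libraries correlated at 0.565 between WT groups, 0.229 between KO groups and -0.112 to 0.112 between genotypes. Same-numbered libraries thus deviated together in WT and only weakly in KO. With 2 libraries per group each of these values rests on few libraries. The labels do not say what a number marks.

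Some named differences changed sign, most of them near zero. Iscu was 0.255 with the length trend removed (also with the block), 0.099 in the libraries numbered 2 and 0.161 without both libraries. Ndrg1 was 0.175 in the libraries numbered 1 and 0.26 without both. In the libraries numbered 2, Adm was -0.114, Bnip3 -0.083, Car9 -0.697, P4ha1 -0.104, Pdk1 0.357, Slc2a1 -0.038 and Bbc3, a p53 target at -1.30 in all 8 libraries, 0.351. Without both libraries, Ankrd37 was 0.023, Pdk1 0.51 and Slc2a1 -0.08. With single libraries or both left out the ranges were -0.172 to 0.562 (Adm), -1.123 to 0.023 (Ankrd37), -0.12 to 0.393 (Bnip3), -0.268 to 0.834 (Car9), -0.294 to 0.161 (Iscu), -0.311 to 0.26 (Ndrg1), -0.061 to 0.243 (P4ha1), -0.68 to 0.51 (Pdk1), -0.108 to 1.476 (Slc16a3) and -0.209 to 0.497 (Slc2a1). The cause was not tested. Depth limits features near a value of 10, which rest on about 6.2 to 13.8 reads.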
